A study of Caenorhabditis elegans with 2 samples.

Results

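The genes described here are the 71 translation factor and tRNA synthetase genes among the 19985 protein-coding genes that Ensembl annotates in the nematode Caenorhabditis elegans. ChIP-seq, which sequences the DNA that comes down with an antibody, had located LIR-3, a protein named for its relation to LIN-26, on the chromatin of whole worms. The members were picked by gene symbol, with earlier results of these data known. They are 39 translation factor genes (symbols beginning eif-, eef-, iff-, ife- or ifg- and a digit) and 32 tRNA synthetase genes (a letter, then ars- and a digit). The worms were hermaphrodite L4 larvae of strain OP312, with genotype unc-119(ed3) III; wgIs312, taken 48 hours after synchronization by L1 starvation. In both samples the transgene encodes LIR-3 with GFP-FLAG at the C-terminal end, and an antibody to GFP was used. There is 1 group with 2 biological replicates, so no condition is compared with another and no p-value is given. Which promoter drives the transgene is not stated in the labels, and since whole animals were used, tissues cannot be told apart. An untagged strain is not analysed here.

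Translation begins when initiation factors bring the ribosome, the initiator tRNA and the mRNA together, and it proceeds as elongation factors deliver each charged tRNA and move the ribosome along. tRNA synthetases charge each tRNA with its amino acid. Animals need synthetases in the cytosol and in mitochondria, and some synthetase genes serve both compartments. The question that these lists can answer is which of the 71 gene starts carry a LIR-3-GFP peak, and how strong and reproducible that peak is.

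A gene was counted as having a peak when the summit, the highest point of a peak, lay between 500 bp before and 200 bp after its annotated start. Relaxed peak lists, labelled as holding background regions as well as peaks, had 17311 peaks for replicate 1, 20601 for replicate 2 and 20360 for the pooled replicates. The stricter list contains the 552 peaks that the submitters kept after the irreproducible discovery rate (IDR) procedure. Its peaks at member starts have the same signal and rank as in the pooled list. Its lowest signal was 88.9, and the highest pooled signal at a member start outside it was 83.3. For these genes, a place in the IDR list is therefore not a measure separate from pooled signal. Peak signal is the authors' own score on a scale that is not stated, so it is used only to order peaks within a list. The lists contain no read counts and the sequencing depth is unknown. Intervals on shares are 95% Wilson intervals and cover counting error over genes only.

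Translation factor and tRNA synthetase genes had an IDR peak at 4 starts, those of iff-2, ears-2, eif-3.C and eef-1G. This was 4 of 71 genes (5.63%, interval 2.21 to 13.6), beside 1.04% of all protein-coding genes. Of the 4, 3 were translation factors (3 of 39, 7.69%, interval 2.65 to 20.3) and 1 was a synthetase (1 of 32, 3.12%, interval 0.554 to 15.7). The intervals of the factors and the synthetases overlap widely, and the difference was not tested. None of the 4 summits had a tRNA, snoRNA, snRNA or miRNA gene start in its window.

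The strongest peak of the set was at iff-2, which encodes the translation factor eIF5A, a protein that carries the modified amino acid hypusine and helps ribosomes through stretches that stall them. Its peak (chromosome II:8561409-8561512, build ce11) had a signal of 90.4 in replicate 1, 69.3 in replicate 2 and 163 in the pooled list. It ranked 128 in replicate 1, 196 in replicate 2 and 128 in the pooled list. Both replicates therefore placed it among their strongest peaks. The summit was 89 bp before the Ensembl gene start at 8561367 on the minus strand, in intergenic sequence with no other gene start in its window. RefSeq annotates the start of iff-2 403 bp further downstream, so the distance from the start depends on the annotation. The paralogue iff-1, the eIF5A gene known for its role in the germline, had no summit in any of the 3 relaxed lists.

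The only synthetase with an IDR peak was ears-2, which RefSeq names the mitochondrial glutamyl-tRNA synthetase EARS2. Its peak (IV:390292-390707) had a signal of 61.2 in replicate 1, 55.3 in replicate 2 and 120 in the pooled list. The corresponding ranks were 323, 317 and 280. The replicates thus gave it nearly the same rank in lists of different length. The summit was 32 bp before the gene start at 390468 on the minus strand. The gene uncp-18 starts in the opposite direction 92 bp away and has the same summit 60 bp before its own start, so the peak cannot be assigned to 1 of these genes.

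Among the other factors with an IDR peak, eif-3.C encodes a core subunit of eIF3, the large initiation complex that scaffolds the small ribosomal subunit. Its peak (I:9979711-9980126) had a signal of 62.8 in replicate 1, 41.6 in replicate 2 and 110 in the pooled list, at ranks 298, 668 and 352. The replicate summits were 1 bp apart, and the pooled summit lay 257 bp before the start at 9979662. The nearest upstream gene, sys-1 (a beta-catenin), lies on the same strand and ends 401 bp before that start.

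The last of the 4 was eef-1G, which encodes the gamma subunit of elongation factor 1, part of the complex that recharges the tRNA carrier eEF1A with GTP. Its peak (V:10965509-10965924) had a signal of 49.2 in replicate 1, 38.7 in replicate 2 and 91.8 in the pooled list, at ranks 562, 803 and 516. It was thus just inside the IDR list, whose lowest signal was 88.9, and outside the 552 strongest peaks of either replicate. Those strongest peaks covered 3 members in replicate 1 (ears-2, eif-3.C and iff-2, beside 0.961% of protein-coding genes) and 3 in replicate 2 (ears-2, eif-3.B and iff-2, beside 1.02%). Its summit lay 2 bp before the gene start at 10965719 on the plus strand. The divergent gene ctf-4 begins 180 bp away and has the same summit 178 bp before its own start.

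The sequences under these summits show the regions that the signal values describe. Each is the 101 bases centred on the pooled summit, read from the RefSeq genome of WBcel235 (ce11) on the strand of the gene. The first 3 are IDR peaks, and the next 3 are the members of highest pooled signal that missed the IDR list. The remaining IDR peak, at eif-3.C, is not printed. Capitals mark matches, on either strand, to motifs named further on: the A box of tRNA promoters at iff-2, GAGAGAGA at eef-1A.2, overlapping TATAAA matches at eif-3.B and CCCGCC at eef-1A.1.
iff-2 (chrII:8561406-8561506, minus strand): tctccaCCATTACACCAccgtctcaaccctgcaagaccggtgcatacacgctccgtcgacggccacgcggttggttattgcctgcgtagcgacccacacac
ears-2 (chrIV:390450-390550, minus strand): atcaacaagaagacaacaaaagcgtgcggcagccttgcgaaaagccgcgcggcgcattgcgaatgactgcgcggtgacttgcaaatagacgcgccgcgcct
eef-1G (chrV:10965667-10965767, plus strand): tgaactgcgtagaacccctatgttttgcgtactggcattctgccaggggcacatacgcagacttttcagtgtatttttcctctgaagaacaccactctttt
eef-1A.2 (chrX:7823243-7823343, plus strand): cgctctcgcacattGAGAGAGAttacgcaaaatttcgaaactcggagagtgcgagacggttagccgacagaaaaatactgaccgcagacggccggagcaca
eif-3.B (chrII:14795057-14795157, plus strand): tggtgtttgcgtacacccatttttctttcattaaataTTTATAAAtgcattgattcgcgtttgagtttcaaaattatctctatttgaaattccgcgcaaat
eef-1A.1 (chrIII:6972081-6972181, minus strand): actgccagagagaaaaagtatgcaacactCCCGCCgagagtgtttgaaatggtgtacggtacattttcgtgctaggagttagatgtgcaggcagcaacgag

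The base composition of these windows was uneven. G and C made up 60.4% of the window at iff-2 and 58.4% at ears-2. The share was 45.5% at eef-1G and 30.7% at eif-3.B. The median over members with a pooled summit was 42.6% (31 genes), close to the 40.6% over the 3759 nuclear protein-coding genes with one.

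Elongation factor genes, here those with eef- symbols, were the role in which every member had a summit in the pooled relaxed list. This was 6 of 6 (interval 61.0 to 100), beside 18.9% of all protein-coding genes. They lay high in that list: 4 of the 6 had a summit among the 1000 strongest pooled peaks, where 1.93% of protein-coding genes had one, and 5 of the 6 among the 2000 strongest, against 3.38%. The sixth, eef-1B.2, ranked 5144, just beyond the 5000 strongest, which reached 6.77% of protein-coding genes and 13 of the 71 members. Of the other 33 factors, 3 had a summit among the 1000 strongest (9.09%), and of the 32 synthetases 1 (3.12%). Of these 6 genes 1, eef-1G, passed IDR (16.7%, beside 1.04% of all protein-coding genes). The grouping by role was made with the values of these genes known, and the difference between roles was not tested. It also depends on counting the eIF5A genes apart, although RefSeq names 1 product of iff-1 a translation elongation factor. Of these, iff-2 had an IDR peak and iff-1 no summit in any relaxed list, so with them not every elongation gene would have a summit. Other genes with the words elongation factor in their RefSeq product name fall outside the symbols used. Of these, F58G1.8 is named only for an elongation factor G domain and K10C3.5 only as elongation factor-like 1. C08E8.5, named elongation factor 1-alpha, had no summit in any list, and tufm-1, the mitochondrial elongation factor Tu, none in the pooled list. Pooled summits were at gfm-1 (signal 66.0), F58G1.8 (54.4), K10C3.5 (35.6) and tsfm-1 (34.6), beside 18.9% of protein-coding genes. Both replicates had a summit at gfm-1, F58G1.8 and K10C3.5, and replicate 1 alone at tsfm-1. None of these genes had an IDR peak, which is near the background of 1.04% of protein-coding genes.

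The pair eef-1A.1 and eef-1A.2 encodes eEF1A, the GTPase that delivers charged tRNAs to the ribosome. At eef-1A.2 (X:7823085-7823500) the signal was 42.8 in replicate 1, 37.9 in replicate 2 and 83.3 in the pooled list, at ranks 810, 859 and 632. This was the member nearest to the IDR list without being in it. The peak at eef-1A.1 (III:6971923-6972338) had a signal of 28.1, 43.1 and 73.1 in the same order, at ranks 3202, 607 and 837, so that the replicates placed it differently. Both summits were far upstream, 361 bp before the start of eef-1A.2 and 419 bp before that of eef-1A.1. The coding sequences are 94.0% identical with a longest shared run of 53 bases, whereas the peak intervals share no run longer than 12 bases. The summit at eef-1A.1 is 122 bp before the start of the divergent gene rfc-4, a replication factor C subunit, and 46 bp before that of the miRNA gene cel-mir-5549.

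The remaining elongation genes had lower pooled signals. At eef-2, the GTPase that moves the ribosome by a codon, the signal was 48.4 in replicate 1, 24.9 in replicate 2 and 70.6 in the pooled list (I:9163313-9163728), at ranks 583, 3101 and 905. At eef-1B.1, a nucleotide exchange subunit of elongation factor 1, it was 36.9, 25.9 and 66.0 in that order (III:7973255-7973670), at ranks 1238, 2737 and 1049. Both genes ranked higher in replicate 1 than in replicate 2. The summits lay 10 bp and 77 bp before the gene starts, and each shares its window with a divergent gene, clsp-1 for eef-2 and the mitochondrial aconitase gene aco-2 for eef-1B.1, whose summit also lies in an exon of the ncRNA gene F54H12.9. At eef-1B.2, the other exchange subunit gene, replicate 1 had no summit in the window, replicate 2 had a signal of 22.5 at rank 4439 and the pooled list 39.0 at rank 5144. That summit was the only one of the 6 inside the gene, 128 bp after the start and in coding sequence.

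**Figure D1:**
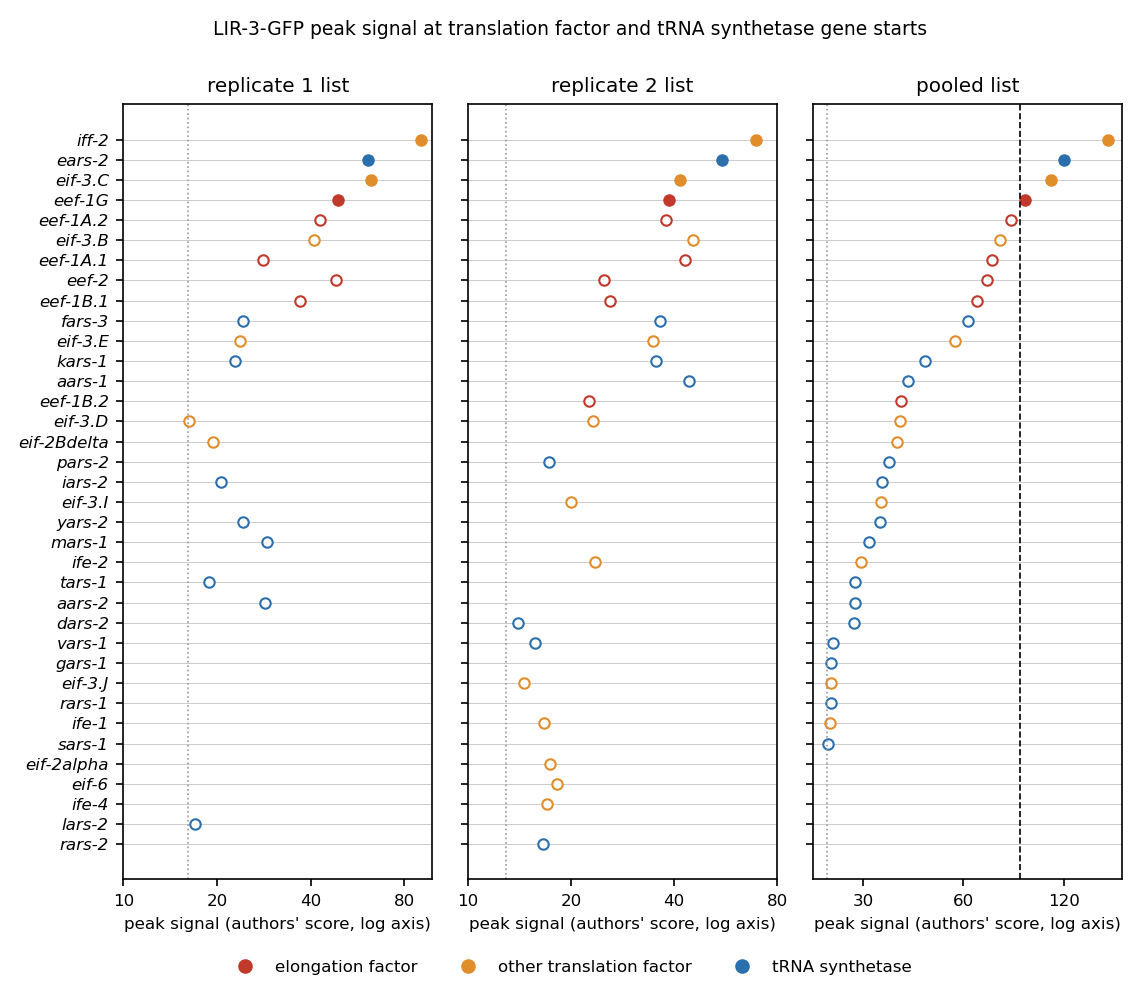
Peak signal (authors' score, log axis) at each of the 36 members with a summit in any relaxed list, by list, ordered by pooled signal; red marks elongation factors, orange other factors and blue synthetases. Filled points passed IDR, dotted lines mark the lowest signal in each list, and the dashed line the lowest IDR signal of 88.9; the 4 filled points lie above 90 in the pooled panel and 5 of the 9 highest pooled points are elongation factors.

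The eIF3 genes were split. Of 11 eIF3 subunit genes 6 had a pooled summit (beside 18.9% of all protein-coding genes), 4 had a summit in both replicates (beside 8.13%) and 1, eif-3.C, passed IDR (beside 1.04%). The next strongest was eif-3.B, another core subunit, with 41.2 in replicate 1, 45.4 in replicate 2 and 77.3 in the pooled list (II:14794899-14795314), at ranks 933, 532 and 737. It was among the 552 strongest peaks of replicate 2 but not of replicate 1. At eif-3.E the signal was 23.8, 34.8 and 56.5 in the same order (I:10642312-10642727), so replicate 2 was the higher in rank, 1099 against 5692. At eif-3.D, the subunit known in mammals to bind the mRNA cap, it was 16.3, 23.1 and 38.7 (III:8971577-8971992), with a divergent gene, R08D7.4, at the same summit. The ranks were 16874, 4050 and 5259, so in replicate 1 it was near the end of the list. The 4 subunit genes with a summit in both replicates, eif-3.B, eif-3.C, eif-3.D and eif-3.E, had it between 297 and 207 bp before the start in the pooled list. The median position was -145 bp over all protein-coding genes with a pooled summit and -231 bp over those with an IDR summit. The other pooled summits, at eif-3.I (signal 33.9) and eif-3.J (signal 24.0), were lower in signal and absent from replicate 1. The median signal of the pooled list was 31.2. No relaxed summit lay at eif-3.F, eif-3.G, eif-3.H, eif-3.K or eif-3.L.

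The other initiation factor genes are given against a background in which 28.6% of protein-coding genes had a summit in at least 1 relaxed list, so that lacking one was the usual case. Neither eif-1 nor eif-1.A, whose products help the ribosome choose the start codon, had a summit in any relaxed list. Of the 3 genes of eIF2, which brings the initiator tRNA, only eif-2alpha had one, in replicate 2 alone and 499 bp before the start. Among the 5 genes of eIF2B, the exchange factor of eIF2, eif-2Bdelta had a pooled summit with a signal of 37.8, 498 bp before its start and in a pseudogene. The summit of replicate 1 there was 204 bp before the start with a signal of 19.5, and replicate 2 had none in the window. The other 4 genes of eIF2B, and eif-2A and eif-2D, had no summit in any relaxed list.

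Of 5 genes of eIF4E, the cap-binding protein, ife-1 and ife-2 had a pooled summit (beside 18.9% of protein-coding genes) and ife-4 a summit in replicate 2 alone. Their pooled signals were 23.8 for ife-1 and 29.6 for ife-2, both under the list's median of 31.2. The genes ife-3 and ife-5, ifg-1 for the scaffold eIF4G, and eif-4A3, known as a part of the exon junction complex, had no summit in any relaxed list. The gene eif-6, whose product keeps the ribosomal subunits apart, had a summit in replicate 2 alone.

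A pooled summit was at 15 of 32 synthetase genes (46.9%, interval 30.9 to 63.6), 16 of 39 factor genes (41.0%, interval 27.1 to 56.6) and 31 of all 71 (43.7%), beside the 18.9% of protein-coding genes. The median rank of those summits was 10082 for synthetases and 1311 for factors, and 7842 for the protein-coding genes with a pooled summit, out of 20360. Among the factors it was 871 for the 6 elongation genes and 5477 for the 10 others. A summit in both replicates was at 3 of 32 synthetases (9.38%) and 10 of 39 factors (25.6%), beside 8.13% of protein-coding genes. The factors were 5 of 6 elongation genes and 5 of 33 others (15.2%). The synthetases' share in both replicates was therefore near the background. A summit in at least 1 relaxed list was at 17 synthetases and 19 factors, 36 of 71 in all (50.7%), beside 28.6% of protein-coding genes, and 35 members had none.

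The 3 synthetases with a summit in both replicates were ears-2, fars-3 and kars-1. At fars-3, the beta subunit of the cytosolic phenylalanyl-tRNA synthetase, the signal was 24.3 in replicate 1, 36.3 in replicate 2 and 62.1 in the pooled list (II:8464548-8464963), at ranks 5314, 960 and 1214. At kars-1, the lysyl-tRNA synthetase, it was 22.9, 35.4 and 45.9 in the same order (pooled II:7072591-7073006). The replicate summits at kars-1 were 505 bp apart, so both replicates had a summit in the window but not at the same place. Over the 13 members with a summit in both replicates, the strongest summits were a median of 21 bp apart and within 50 bp at 10 of them. The other exceptions were eef-1A.1 at 66 bp and eif-3.B at 51 bp.

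**Figure D2:**
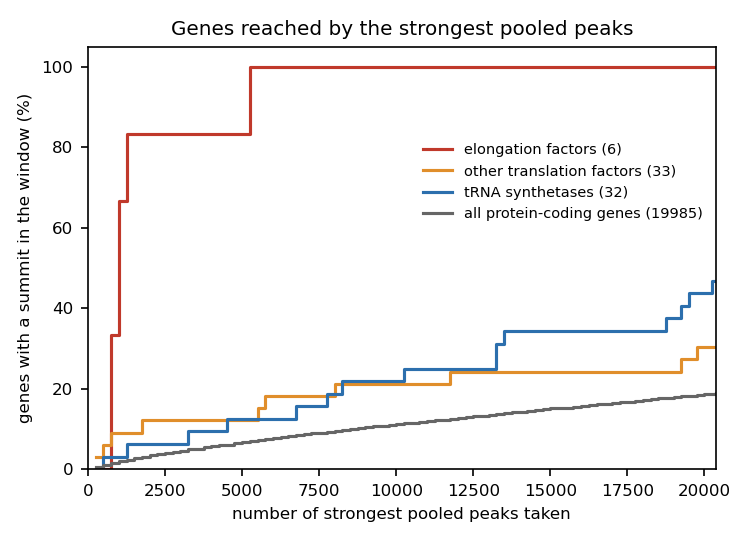
Share of genes (%) with a summit in the window among the strongest pooled peaks, as more peaks are taken in steps of 250, for 6 elongation factors, 33 other translation factors, 32 synthetases and all 19985 protein-coding genes. The elongation line reaches 83.3% within the 2000 strongest peaks, and the synthetase line reaches 6.25% there and 46.9% over the whole list.

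By compartment, RefSeq product names call 4 synthetases mitochondrial (aars-1, ears-2, pars-2 and rars-2) and 10 cytoplasmic, and do not say for 18. An IDR peak was at 1 of the 4 mitochondrial genes and at 0 of the 10 cytoplasmic ones, for which the upper limit of the interval is 27.8%, beside 1.04% of protein-coding genes, so a count of 0 is near the background. None of the 18 others had one. Pooled summits were at 3 of 4 mitochondrial and 5 of 10 cytoplasmic genes, beside 18.9%. The replicates did not treat the compartments alike: replicate 1 had a summit at 1 of 4 mitochondrial and 3 of 10 cytoplasmic genes (beside 16.1% of protein-coding genes), replicate 2 at 4 of 4 and 0 of 10 (beside 18.6%). The difference between the compartments was not tested.

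At aars-1, the mitochondrial alanyl-tRNA synthetase, replicate 2 had a signal of 44.1 at rank 575 and the pooled list 40.9 at rank 4441 (II:11464473-11464888), while replicate 1 had no summit in the window. Its window is shared with the divergent gene rga-1. At pars-2 the pooled signal was 36.0, and rars-2 had a summit in replicate 2 alone. The 5 cytoplasmic synthetases with a pooled summit, aars-2, mars-1, rars-1, sars-1 and tars-1, had signals between 23.5 and 31.3. The lowest signal of the list was 23.4. Of the genes whose product names give no compartment, dars-2, gars-1, iars-2, vars-1 and yars-2 had pooled signals between 24.1 and 34.2, and lars-2 had a summit in replicate 1 alone. The other 15 synthetases had no summit in any relaxed list.

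Compartment can also be read from the number in the symbol, taking -2 as mitochondrial except for the alanyl and valyl enzymes, for which -1 is. This gives 12 mitochondrial and 20 cytosolic genes. The rule counts a gene with no partner of the other number, such as gars-1 or kars-1, as cytosolic, and cannot show genes that serve both compartments. Pooled summits were then at 7 of 12 and 8 of 20 (beside 18.9% of protein-coding genes), and IDR peaks at 1 of 12, which is ears-2, and 0 of 20 (upper limit 16.1%, beside 1.04%). In replicate 1 the order of the shares turned with the rule: the share was lower for mitochondrial genes by product name (1 of 4, against 3 of 10) and higher by symbol (4 of 12, against 5 of 20).

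The window reaches further upstream than downstream, which by itself places most summits upstream. Of the 31 pooled summits 26 were upstream, with a median position of -89 bp and a range of -498 to 128 bp. The median was -197 bp for the 16 factors and -62 bp for the 15 synthetases. Over the 3771 protein-coding genes with a pooled summit it was -145 bp, and 2777 of them had it upstream. The members' positions thus spread on either side of the general median.

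**Figure D3:**
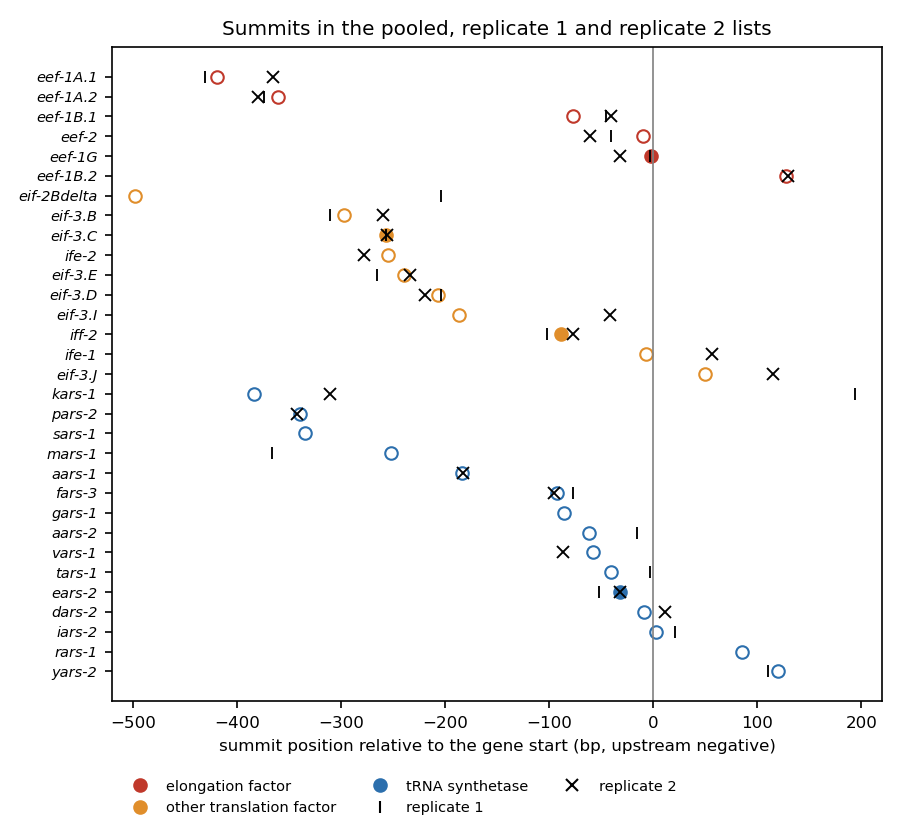
Position in bp, relative to the gene start, of the strongest summit in the window for the 31 members with a pooled summit (circles, filled where the peak passed IDR), with replicate 1 as bars and replicate 2 as crosses. The eIF3 genes eif-3.B to eif-3.E line up between -297 and -207 bp, and the replicates of kars-1 fall on opposite sides of the start.

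The position of a gene among its neighbours is a feature that the choice by symbol did not use. A divergent protein-coding gene within 500 bp upstream was found at 19 of 71 members (26.8%), namely 33.3% of factors and 18.8% of synthetases, against 9.08% of all protein-coding genes. A same-strand gene ended within 500 bp upstream at 17.9% of factors and 31.2% of synthetases, against 17.7%. Among all protein-coding genes, an IDR peak was at 3.80% of those with a divergent neighbour so close and at 0.733% of those with no coding gene within 500 bp. It was at 0.763% of those with a same-strand gene so close and at 1.00% of those starting inside another gene. Among members it was, in the same order, at 2 of 19 (10.5%), 1 of 31 (3.23%), 1 of 17 (5.88%) and 0 of 4. Of the 4 members with an IDR peak, ears-2 and eef-1G have a close divergent neighbour, eif-3.C a same-strand one and iff-2 none. What part the crowding of these gene starts has in the members' share of peaks was not tested.

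**Figure D4:**
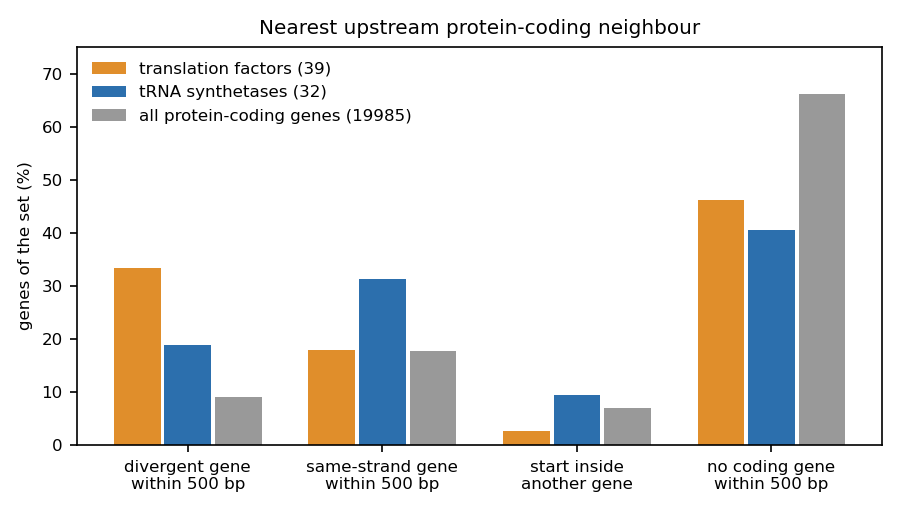
Share of genes (%) by their nearest upstream protein-coding neighbour, for 39 translation factors, 32 synthetases and all 19985 protein-coding genes. Divergent neighbours within 500 bp stand at 33.3% of factors, 18.8% of synthetases and 9.08% of all genes.

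IDR peaks near members but outside the window lay at other features. At fars-1, the alpha subunit of the cytosolic phenylalanyl-tRNA synthetase, an IDR peak with a pooled signal of 135 at rank 213 (I:6212624-6213039) had its summit in an intron, 1853 bp inside the gene and 8 bp before the start of the nested snoRNA gene T08B2.13. The same summit lies in exons of the ncRNA gene T08B2.14, 137 bp after its start, and of a pseudogene, 60 bp after its start, so the peak cannot be assigned to 1 of them. The signal there was 85.2 in replicate 1 and 53.2 in replicate 2, whereas the start of fars-1 itself had no summit in any relaxed list. The peak inside fars-1 had a higher signal than any at a synthetase start in the pooled list and replicate 1, but in replicate 2 it was below ears-2, at 53.2 against 55.3. At eif-2Bgamma the nearest IDR summit was 714 bp upstream with a signal of 89.2, in an intron of C15F1.5. In the same window were the starts of the ncRNA gene C15F1.14, 30 bp after the summit, and of mir-1831 and sup-39, 189 and 196 bp before it. Ensembl annotates both mir-1831 and sup-39 as snRNA genes. Each distance is counted along its own gene. At eif-3.G it was 1063 bp upstream with a signal of 200 (II:8441632-8441763), in an intron of lips-10 with no gene start in its window.

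Other snoRNA genes inside members had no such peak. There are 6 snoRNA genes nested in 4 members, 2 each in eef-1G and eif-4A3 and 1 each in fars-1 and iff-2, and only T08B2.13 had an IDR summit. Neither F54C9.12 in iff-2 nor F17C11.15 in eef-1G had a summit of any relaxed list in its window. The median distance from a member's start to the nearest IDR summit was 49522 bp, against 80135 bp over all protein-coding genes.

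Motifs were searched on both strands of the 250 bases before each start and the 50 bases from it. The letters TGCGTCTC were in 0 of 71 member promoters and 3.32% of the 19973 nuclear protein-coding promoters. A motif of the cell cycle factor E2F (searched as TTCCCGC, then as TTGCCGC, as TTCGCGC and as TTGGCGC) was in 9 of 71 (12.7%, against 9.20%), of which 8 were factors and 1 a synthetase. The factors with it were iff-2, eef-1G, eef-2, eef-1B.1, eif-2Bdelta, eif-3.J, eif-2A and eif-2gamma, of which the last 2 had no summit in any relaxed list. Within 50 bp of the pooled summit it was at 4 of 31 members, eef-2, eef-1B.1, eif-3.D and pars-2 (12.9%, against 5.80% of 3759 genes).

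CCCGCC was in 1 member promoter (1.41%, against 6.48%), GAGAGAGA in 0 (against 3.54%) and CACGTG in 1 (1.41%, against 5.82%). CCAAT was in 33 (46.5%, against 45.5%) and TATAAA in 25 (35.2%, against 37.9%). The A box of tRNA promoters was in 7 (9.86%, against 16.3%), with the match printed for iff-2 on the reverse strand, and the B box (searched as GATCAANNC, then as GATCGANNC, as GTTCAANNC and as GTTCGANNC) in 3 (4.23%, against 9.55%). At the summits the shares were 6.45% against 4.47% for CCCGCC, 3.23% against 2.05% for GAGAGAGA, 22.6% against 17.0% for CCAAT and 16.1% against 13.4% for TATAAA. For the A box they were 6.45% (iff-2 and eif-3.C) against 6.92% and for the B box 3.23% against 3.88%. TGCGTCTC and CACGTG were at 0 member summits (against 3.06% and 2.29%). A match describes letters and is no evidence of a bound factor, and no match says only that the letters are not in that window.

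Of 44 other symbols listed for initiation, release, mitochondrial translation and its control, 32 were in the annotation under that name. A pooled summit was at 15 of the 32 (46.9%, beside 18.9% of all protein-coding genes) and an IDR summit at 0, which is near the background of 1.04%. Among these 32, the highest pooled signals were 66.0 at gfm-1 (mitochondrial elongation factor G), 64.0 at clu-1, 61.2 at pab-2 (a poly(A)-binding protein) and 47.8 at gcn-2 (an eIF2 kinase). In replicate 1 and replicate 2 the signal was 29.1 and 33.4 at gfm-1, 25.0 and 30.1 at clu-1, and 33.2 and 23.3 at gcn-2. At pab-2 the summit ranked 735 in replicate 1, with a signal of 44.4, and 14931 in replicate 2. All 4 genes had summits in both replicates, with pooled signals under the lowest of the IDR list. Outside this list of symbols, RefSeq names C37C3.18 eukaryotic translation initiation factor 5. Its signal was 35.1 in replicate 1, 37.1 in replicate 2 and 74.0 in the pooled list, at pooled rank 804, without an IDR peak.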

How the data were processed

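LIR-3-GFP ChIP-seq of whole L4 larvae in 2 biological replicates was analysed from ce11 peak lists in narrowPeak format. Per the submitters' file listing, relaxed lists were called on each replicate and on the pooled replicates against a control, and from these came the IDR list. Which aligner and caller were run is not given in the sources used here. Peak signal, as deposited, is the authors' score on an unstated scale, and summits come from the offsets deposited beside it. The authors' −log10 of the q-value played no part in any count. The lists give no reads, so depth is unknown. Lists on build ce10 were not used.

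Gene starts came from Ensembl release 115 (WBcel235, the assembly that UCSC calls ce11), and product names and sequence came from RefSeq. Where a window held several summits the strongest was taken. Coordinates are 1-based. Near-identical gene copies can share reads. Shares carry Wilson intervals, and no test was made: members are not replicates of a condition. Every member may be named, with replicate values for those with an IDR summit and the 12 strongest others. Up to 4 of the other translation genes listed by symbol may be named, and some found by RefSeq product are named too. The members, roles and lists were chosen with earlier results of these data known. Window assignment was tested on simulated data, with 600 of 600 placed summits sorted rightly. Protein sequences were not used here. Alternatives were other windows, peak intervals, transcript starts, stronger peaks and single replicates. Starts from RefSeq and membership by product name were added after the data were seen. Python 3.11.15, numpy 2.4.6, scipy 1.17.1 and matplotlib 3.10.9 were used.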

Additional observations from a re-analysis of the deposited data

How the results depend on the processing

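Counts of genes with a summit were recomputed in 91 combinations of a count and an alternative, and 74 stayed within 1.5 times the count reported. In the stronger 276 IDR peaks the count was 1 for all members and 1 for factors, both iff-2, and 0 for all synthetases and for mitochondrial ones. Of all protein-coding genes 0.460% had a summit there. With the strongest peaks of 1 replicate alone, the counts were 3 for members, 2 for factors and 1 for synthetases either way. The shares of all protein-coding genes were 0.961% for replicate 1 and 1.02% for replicate 2. A window of 250 bp upstream to 100 bp downstream left pooled summits at 20 members, 9 factors and 3 cytoplasmic synthetases, with 10.8% of all protein-coding genes. The stronger part of the pooled list left 8 synthetases, of which 1 was cytoplasmic, with 11.3% of all protein-coding genes. With the relaxed list of 1 replicate, counts ranged from 20 to 26 for members, 11 to 18 for factors, 8 to 9 for synthetases, 0 to 3 for cytoplasmic synthetases and 1 to 4 for mitochondrial ones. Of all protein-coding genes 16.1% had a summit in replicate 1 and 18.6% in replicate 2. Compartment by symbol gave pooled summits at 8 of 20 cytosolic and 7 of 12 mitochondrial genes, over more genes of each kind, beside 18.9% of protein-coding genes. With membership by symbol or RefSeq product there were 94 genes, and the IDR peaks were at the same 4, beside 1.04% of protein-coding genes. They were at 3 of 59 factors and 1 of 35 synthetases. These shares are lower than with symbols alone, because no added gene had an IDR peak. What causes the differences between alternatives was not tested. No paired analysis was possible because all samples form a single group. The unknown depth limits what the absence of a summit can show.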
